A study of Homo sapiens with 24 samples.

Results

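A set of 22 genes, out of 13033 measured, was little above its starting level, or below it, 2 h after RAS inhibition and several-fold higher at 24 h in both of the leukaemia lines studied. The genes were chosen by their measured values. For each gene the group means of log2 CPM (counts scaled to the size of each library, as logarithms to base 2) had to be at least 2 higher at 24 h than in DMSO in both lines, and less than 0.7 higher at 2 h in both lines. The 24 h mean also had to reach a log2 CPM of 2 in both lines, and histone, HLA and FCGR symbols and CSF1R were left out. The libraries were poly(A) RNA of 2 human acute myeloid leukaemia (AML) lines, labelled as myeloid cells. Molm-14 carries FLT3-ITD, an internal duplication in the receptor tyrosine kinase FLT3. OCI-AML3 (OCIAML-3 in the labels) carries NRAS Q61L, an activating change in the RAS protein itself. Cells were given the solvent DMSO, or RMC-7977 at 25 nM for 2 h or 24 h. RMC-7977 binds RAS proteins in their active, GTP-loaded state. Each of the 6 groups had n = 4 libraries, except OCI-AML3 at 24 h (n = 3, replicates 1, 2 and 4). Each genotype is represented by a single line, no time is given for the DMSO libraries, and the labels leave unsaid whether replicate libraries were grown as separate cultures. A p-value here therefore reflects the scatter of these libraries alone, which may be technical.

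RAS passes signals from growth factor receptors to the RAF, MEK and ERK kinases, which drive growth and survival. Direct targets of ERK respond within minutes to hours, whereas genes of maturation, adhesion and immune sensing usually follow later. Immune receptors of myeloid cells work through short tyrosine motifs: activating receptors borrow adaptors such as TYROBP, and inhibitory receptors such as CD300A carry their own inhibitory motif and recruit phosphatases.

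The libraries held between 15.4 and 22.4 M effective reads (median 18.5 M). Within groups, the log2 CPM of 2 libraries correlated across genes at r = 0.991 or more. All 12 myeloid identity markers were among the genes measured, and none of the 6 lymphoid and none of the 6 erythroid and platelet markers was. The summed level of the 9 measured of 12 monocyte and macrophage markers was higher at 24 h but little changed at 2 h. Molm-14 libraries held 154 to 167 CPM in DMSO, 161.5 to 174.3 CPM after 2 h and 299.9 to 310.2 CPM after 24 h. For OCI-AML3 libraries these sums were 754 to 798, 737.5 to 751.5 and 4120 to 4494 CPM. CD86, a gene of the set, is among these 9. Such a sum is weighted towards its most abundant genes. A longer list, without CD86, had 21 measured genes with a median 24 h difference of 0.72 (Molm-14) and 0.99 (OCI-AML3) in log2. The sum of the 12 myeloid identity markers, LYZ of the 9 among them, was higher after 24 h too. It was 1323 to 1388 CPM in DMSO and 2031 to 2109 CPM after treatment (Molm-14), and 2462 to 2585 and 7084 to 7483 CPM (OCI-AML3). The median 24 h difference over these 12 genes was smaller, at 0.34 (Molm-14) and 0.55 (OCI-AML3) in log2. The summed level of the 3 measured of 6 epithelial and stromal markers (KRT18, COL1A2 and PECAM1) was 87.6 to 89.9 CPM in DMSO and 135.8 to 144.6 CPM at 24 h in Molm-14, and 32.7 to 36.7 CPM and 76.9 to 80.1 CPM in OCI-AML3. The part of these shifts in the results below was not tested. In bulk RNA a larger share of mature cells and more RNA per cell cannot be told apart.

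The 24 h condition was met by 373 genes in Molm-14, by 738 in OCI-AML3 and by 196 in both, of which 114 also had the required level. The 2 h condition then removed 89 of these 114: 25 by their 2 h value in Molm-14 only, 15 in OCI-AML3 only and 49 in both. Of the 25 left, the symbol rule took out FCGR2B, FCGR2C and H2BC12. The gene nearest the 24 h threshold in Molm-14 was IL11RA at 2.01 inside and GNG7 at 1.99 outside. In OCI-AML3 it was NOL3 at 2.06 inside and IQSEC2 at 1.97 outside. At 2 h the nearest were CARMIL2 at 0.65 inside and TNXB at 0.71 outside in Molm-14, and MS4A14 at 0.69 inside and CCDC88B at 0.74 outside in OCI-AML3. For the 24 h level they were CDK18 at 2.41 inside and LINC02615 at 1.88 outside in Molm-14, and ABCB6 at 3.26 inside and PLB1 at 1.87 outside in OCI-AML3.

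Because these values chose the genes, the differences from DMSO are given as a description with no test. The median difference at 24 h over the 22 genes was 2.46 in Molm-14 and 2.61 in OCI-AML3, where all genes had medians of 0 and 0.01. A gene was called where limma's adjusted p was below 0.05 and the log2 difference at least 1 in size. By this measure 11.4% of all genes were higher at 24 h in Molm-14 and 18.4% in OCI-AML3. Calls in Molm-14 numbered 1481 higher and 856 lower, or 1738 and 629 when libraries were scaled to their totals. For all 22 genes every 24 h library stood above every DMSO library in both lines. The same held for 34.7% of all genes in Molm-14 and 41.3% in OCI-AML3. At 2 h the median difference was 0.14 in Molm-14 and 0.22 in OCI-AML3, where all genes had medians of 0 and 0.02. Of the 22 genes, 8 in Molm-14 and 4 in OCI-AML3 were below 0. The rule set no lower limit at 2 h, and CD300A in Molm-14 and CD86 in OCI-AML3 were well below their DMSO level there.

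**Figure D1:**
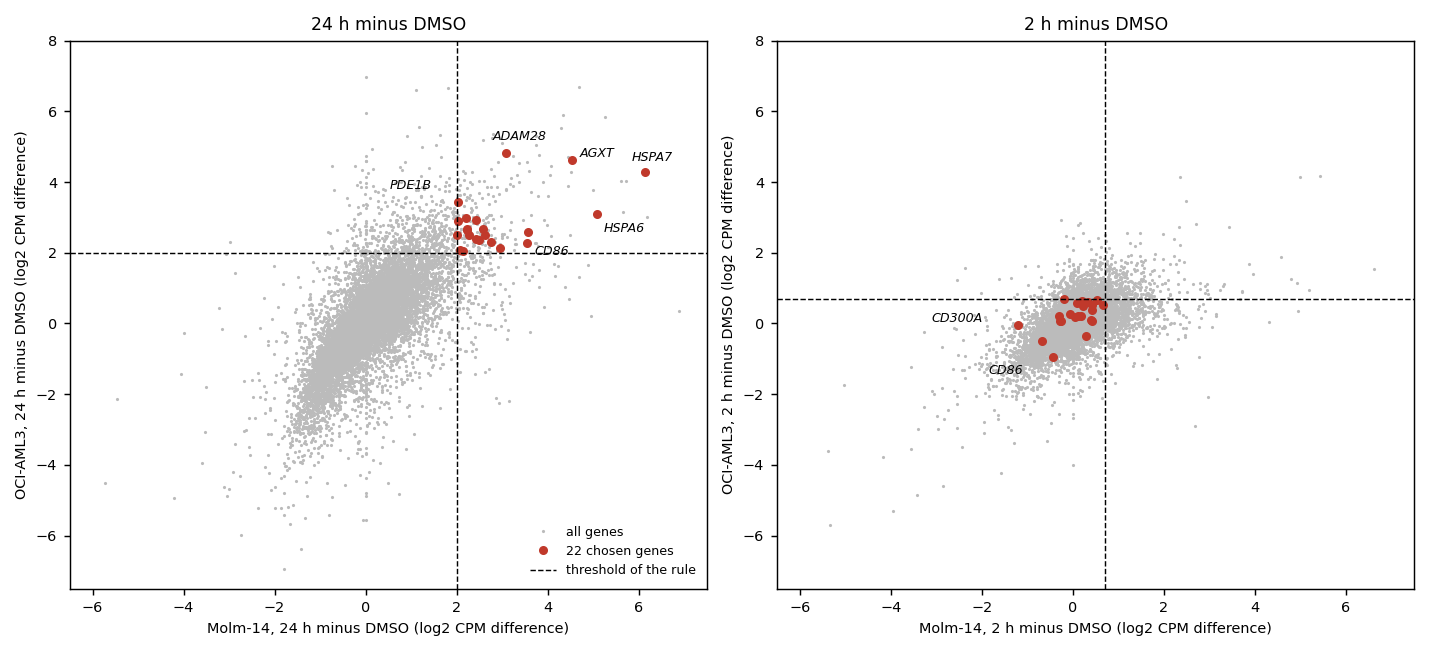
Difference from DMSO in Molm-14 (x axis) and OCI-AML3 (y axis), in log2 CPM, at 24 h (left) and 2 h (right); grey points are all 13033 genes, red points the 22 chosen genes, and dashed lines the thresholds of the rule. The 22 genes lie above 2 on both axes at 24 h, where HSPA7 reaches 6.13 in Molm-14 and ADAM28 4.84 in OCI-AML3, and CD300A lies at -1.21 in Molm-14 at 2 h.

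Per-library values below are in CPM, in the order of the replicate numbers, and fold changes are ratios of group means on the deposited log2 scale, which carries a prior of 0.105 CPM and so understates the change of low genes. Positions are those of RefSeq on GRCh38.p14, or of GENCODE v29 where named. For named genes outside the set, differences, rises, falls and calls are those between 24 h and DMSO unless 2 h is given.

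The genes are ordered by role, as general knowledge of each gene gives it, starting with those known for work in immune cells. TYROBP (chr19:35904403-35908295, minus strand) encodes DAP12, the membrane adaptor that gives activating receptors of myeloid and natural killer cells their tyrosine motif. TYROBP in Molm-14 stood at 19.9, 20.7, 18.3 and 18.7 CPM in DMSO, 24.5, 25.4, 25.4 and 27 CPM at 2 h and 113, 115, 115 and 117 CPM at 24 h. In OCI-AML3 TYROBP stood at 15.4, 13.4, 16.9 and 12.1 CPM in DMSO, 16.2, 15.5, 14.2 and 15.9 CPM at 2 h and 107, 83.6 and 86.1 CPM at 24 h. It was 5.94-fold higher at 24 h in Molm-14 (2.57 ± 0.08 log2, SE) and 6.38-fold in OCI-AML3 (2.67 ± 0.09). At 2 h the Molm-14 libraries already lay just above all DMSO libraries, and those of OCI-AML3 overlapped them. Of the 16 genes of the set with a promoter sequence at hand, TYROBP alone held letters of the myeloid factor PU.1 in the 250 bases before its start. These bases are shown 5′ to 3′ along the strand of the gene, with the PU.1 letters in capitals.
TYROBP, chr19:35908296-35908545, minus strand: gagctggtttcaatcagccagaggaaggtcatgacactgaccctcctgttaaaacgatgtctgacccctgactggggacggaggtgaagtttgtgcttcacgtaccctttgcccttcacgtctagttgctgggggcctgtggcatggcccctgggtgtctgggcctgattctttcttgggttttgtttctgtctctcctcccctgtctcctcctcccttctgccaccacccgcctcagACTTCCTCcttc

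CD300A (chr17:74466373-74484798, plus strand) encodes an inhibitory receptor that binds phospholipids exposed on dying cells. CD300A in Molm-14 stood at 9.76, 10.2, 10.5 and 9.22 CPM in DMSO, 4.75, 3.56, 3.78 and 5.28 CPM at 2 h and 55.1, 54.3, 54.3 and 49.7 CPM at 24 h. In OCI-AML3 CD300A stood at 4.19, 5.24, 4.88 and 4.43 CPM in DMSO, 4.06, 5.17, 4.68 and 4.17 CPM at 2 h and 25.1, 24.7 and 23.2 CPM at 24 h. The 2 h libraries of Molm-14 were all lower than its DMSO libraries, at 0.433 times the DMSO level, whereas those of OCI-AML3 overlapped DMSO. By 24 h the level was 5.38-fold that of DMSO in Molm-14 and 5.21-fold in OCI-AML3.

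CD86 (chr3:122055362-122121136, plus strand) encodes a costimulatory ligand of antigen-presenting cells that binds CD28 and CTLA4 on T cells. CD86 in Molm-14 stood at 1.12, 1.47, 1.0 and 1.34 CPM in DMSO, 0.971, 1.2, 0.649 and 0.852 CPM at 2 h and 15, 13.4, 16 and 12.9 CPM at 24 h. In OCI-AML3 CD86 stood at 4.65, 4.78, 3.9 and 5.8 CPM in DMSO, 2.39, 2.56, 2.05 and 2.92 CPM at 2 h and 23, 22.3 and 24.2 CPM at 24 h. It too was lower at 2 h in OCI-AML3, with no overlap between the 2 h and DMSO libraries, at 0.52 times the DMSO level, while in Molm-14 the 2 h and DMSO libraries overlapped. At 24 h it was 11.7-fold higher in Molm-14 (3.55 ± 0.16) and 4.89-fold in OCI-AML3 (2.29 ± 0.18).

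FYB1 (chr5:39105252-39274528, minus strand) encodes the adaptor ADAP, which couples antigen and Fc receptor signalling to integrins. FYB1 in Molm-14 stood at 8.51, 8.5, 9.61 and 10.2 CPM in DMSO, 8.91, 10.3, 9.4 and 9.13 CPM at 2 h and 68, 72.9, 71.6 and 70.1 CPM at 24 h. In OCI-AML3 FYB1 stood at 15, 15.8, 14.6 and 18.1 CPM in DMSO, 17.1, 19.6, 17.7 and 17.7 CPM at 2 h and 63.6, 72.2 and 71.9 CPM at 24 h. The lines differed in DMSO, where their libraries did not overlap, and overlapped at 24 h. The fold was 7.7 in Molm-14 and 4.36 in OCI-AML3. Its binding partners LCP2 and SKAP2 were not called in either line at 24 h. They were at 0.07 and 0.55 for LCP2 and 0.40 and -0.31 for SKAP2 (log2, Molm-14 then OCI-AML3). At 2 h LCP2 was called lower in Molm-14 (-1.5 ± 0.05) and was at 0.19 ± 0.05 in OCI-AML3.

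CARMIL2 (chr16:67645144-67657569, plus strand) encodes a regulator of actin capping protein that works in CD28 signalling of T cells. CARMIL2 in Molm-14 stood at 0.61, 1.8, 1.29 and 1.28 CPM in DMSO, 1.7, 2.08, 1.56 and 2.0 CPM at 2 h and 7.61, 6.09, 6.19 and 6.31 CPM at 24 h. In OCI-AML3 CARMIL2 stood at 4.24, 4.92, 4.26 and 3.84 CPM in DMSO, 5.23, 5.76, 5.91 and 7.85 CPM at 2 h and 24.3, 22.9 and 19.8 CPM at 24 h. Its DMSO libraries spread widely in Molm-14, and its 2 h libraries overlapped DMSO in Molm-14 but not in OCI-AML3. The 24 h level was 5.62-fold and 5.18-fold that of DMSO. Its annotated span overlaps that of ACD, at -0.03 and -0.53, and the strand setting of the counting is not given in the sources used here.

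IL11RA (chr9:34652185-34661902, plus strand) encodes the ligand-binding chain of the interleukin-11 receptor, which signals through IL6ST. IL11RA in Molm-14 stood at 2.3, 3.37, 2.06 and 1.45 CPM in DMSO, 2.43, 3.39, 3.46 and 2.52 CPM at 2 h and 8.69, 9.14, 9.31 and 8.26 CPM at 24 h. In OCI-AML3 IL11RA stood at 5.91, 5.6, 5.49 and 4.69 CPM in DMSO, 7.54, 8.24, 7.95 and 7.56 CPM at 2 h and 33.2, 29.5 and 28.7 CPM at 24 h. The 24 h level was 4.03-fold higher in Molm-14 and 5.63-fold in OCI-AML3. IL6ST was at 0.18 ± 0.10 and 0.61 ± 0.10 and was not called in either line.

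NLRP1 (chr17:5501396-5584509, minus strand) encodes an inflammasome sensor. NLRP1 in Molm-14 stood at 2.4, 2.09, 2.69 and 2.43 CPM in DMSO, 1.84, 2.2, 2.21 and 1.72 CPM at 2 h and 13.3, 12.8, 13.2 and 12.4 CPM at 24 h. In OCI-AML3 NLRP1 stood at 55.5, 51.2, 53.2 and 51.7 CPM in DMSO, 55.4, 56.8, 53.3 and 58.5 CPM at 2 h and 417, 401 and 393 CPM at 24 h. The fold was 5.4 in Molm-14 and 7.63 in OCI-AML3, from very different starting levels: every treated Molm-14 library remained under every DMSO library of OCI-AML3. Of 3 other measured NLRP genes, NLRP6 rose in both lines from under 1 CPM (1.83 ± 0.31 in Molm-14 and 3.76 ± 0.34 in OCI-AML3), and its Molm-14 call ended on a scale of log2(CPM + 1), at 0.61. NLRP12 rose in OCI-AML3 (1.5 ± 0.08) and was at -0.68 ± 0.08 in Molm-14. NLRP3, another inflammasome sensor, was not called at 24 h, at -0.21 ± 0.05 and -0.55 ± 0.05. At 2 h it was called lower in both lines (-1.68 ± 0.05 in Molm-14 and -1.33 ± 0.05 in OCI-AML3).

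MS4A14 (chr11:60396459-60417756, plus strand) encodes a multi-pass membrane protein of the MS4A family, whose relatives include CD20 of B cells and several myeloid proteins. MS4A14 in Molm-14 stood at 10.2, 11.6, 12.2 and 12.2 CPM in DMSO, 11.3, 8.68, 10.2 and 10.4 CPM at 2 h and 56.6, 60.1, 49.4 and 49.1 CPM at 24 h. In OCI-AML3 MS4A14 stood at 9.66, 12.7, 10.1 and 12.6 CPM in DMSO, 19, 18.9, 18.1 and 16.2 CPM at 2 h and 69, 74.1 and 72.7 CPM at 24 h. It was 4.65-fold and 6.43-fold higher at 24 h, and its 2 h libraries lay above DMSO in OCI-AML3 only. Of 4 other measured MS4A genes, MS4A6A rose in both lines (1.01 in Molm-14 and 2.7 in OCI-AML3). Its Molm-14 call ended on the log2(CPM + 1) scale (0.95) and without Molm-14 DMSO replicate 1 (0.91), Molm-14 DMSO replicate 2 (0.99) or Molm-14 24 h replicate 3 (0.96). MS4A4E rose in OCI-AML3 (1.53) and was at 0.03 in Molm-14. MS4A3 fell in Molm-14 (-1.29, and -0.6 and not called on the log2(CPM + 1) scale) and was at -0.68 in OCI-AML3. MS4A7, the nearest neighbour at 511 bases, was at 0.83 and 0.70 and missed the threshold in both lines.

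Of 5 measured receptors and adaptors picked as ones that work with or resemble TYROBP, none was called higher in both lines. The 5 are not a full list of such genes. CD300LB, an immune receptor related to CD300A, was not among them and was called higher in both lines (1.28 in Molm-14 and 3.81 in OCI-AML3). Its Molm-14 call ended on the log2(CPM + 1) scale (0.65). These relatives and the other families below were picked after their values were seen. TREM1, a receptor that signals through TYROBP, fell in both lines, from 2.42 to 0.381 CPM in Molm-14 and from 5.36 to 0.653 CPM in OCI-AML3 (geometric means). FCER1G, the sister adaptor of Fc receptors, rose in Molm-14 (1.56 ± 0.17, and 0.74 and not called on the log2(CPM + 1) scale) and was at 0.22 ± 0.18 in OCI-AML3. TREM2 was at -0.81 and -0.78 and was not called. SIRPB1 fell in OCI-AML3 (-1.12, and -0.95 and not called with library totals) and was at -0.48 in Molm-14. HCST, the adaptor DAP10, lies 26 bases from the 3′ end of TYROBP. HCST stood at 23.8 and 45.2 CPM in Molm-14 DMSO and 24 h, and at 0.178 and 0.723 CPM in OCI-AML3, close to the lowest value of the table. It was called in OCI-AML3 (2.02), though not on the log2(CPM + 1) scale (0.55), and was at 0.93 in Molm-14, where library totals (1.03) and median-of-ratios scaling (1.02) took it past the threshold.

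**Figure D2:**
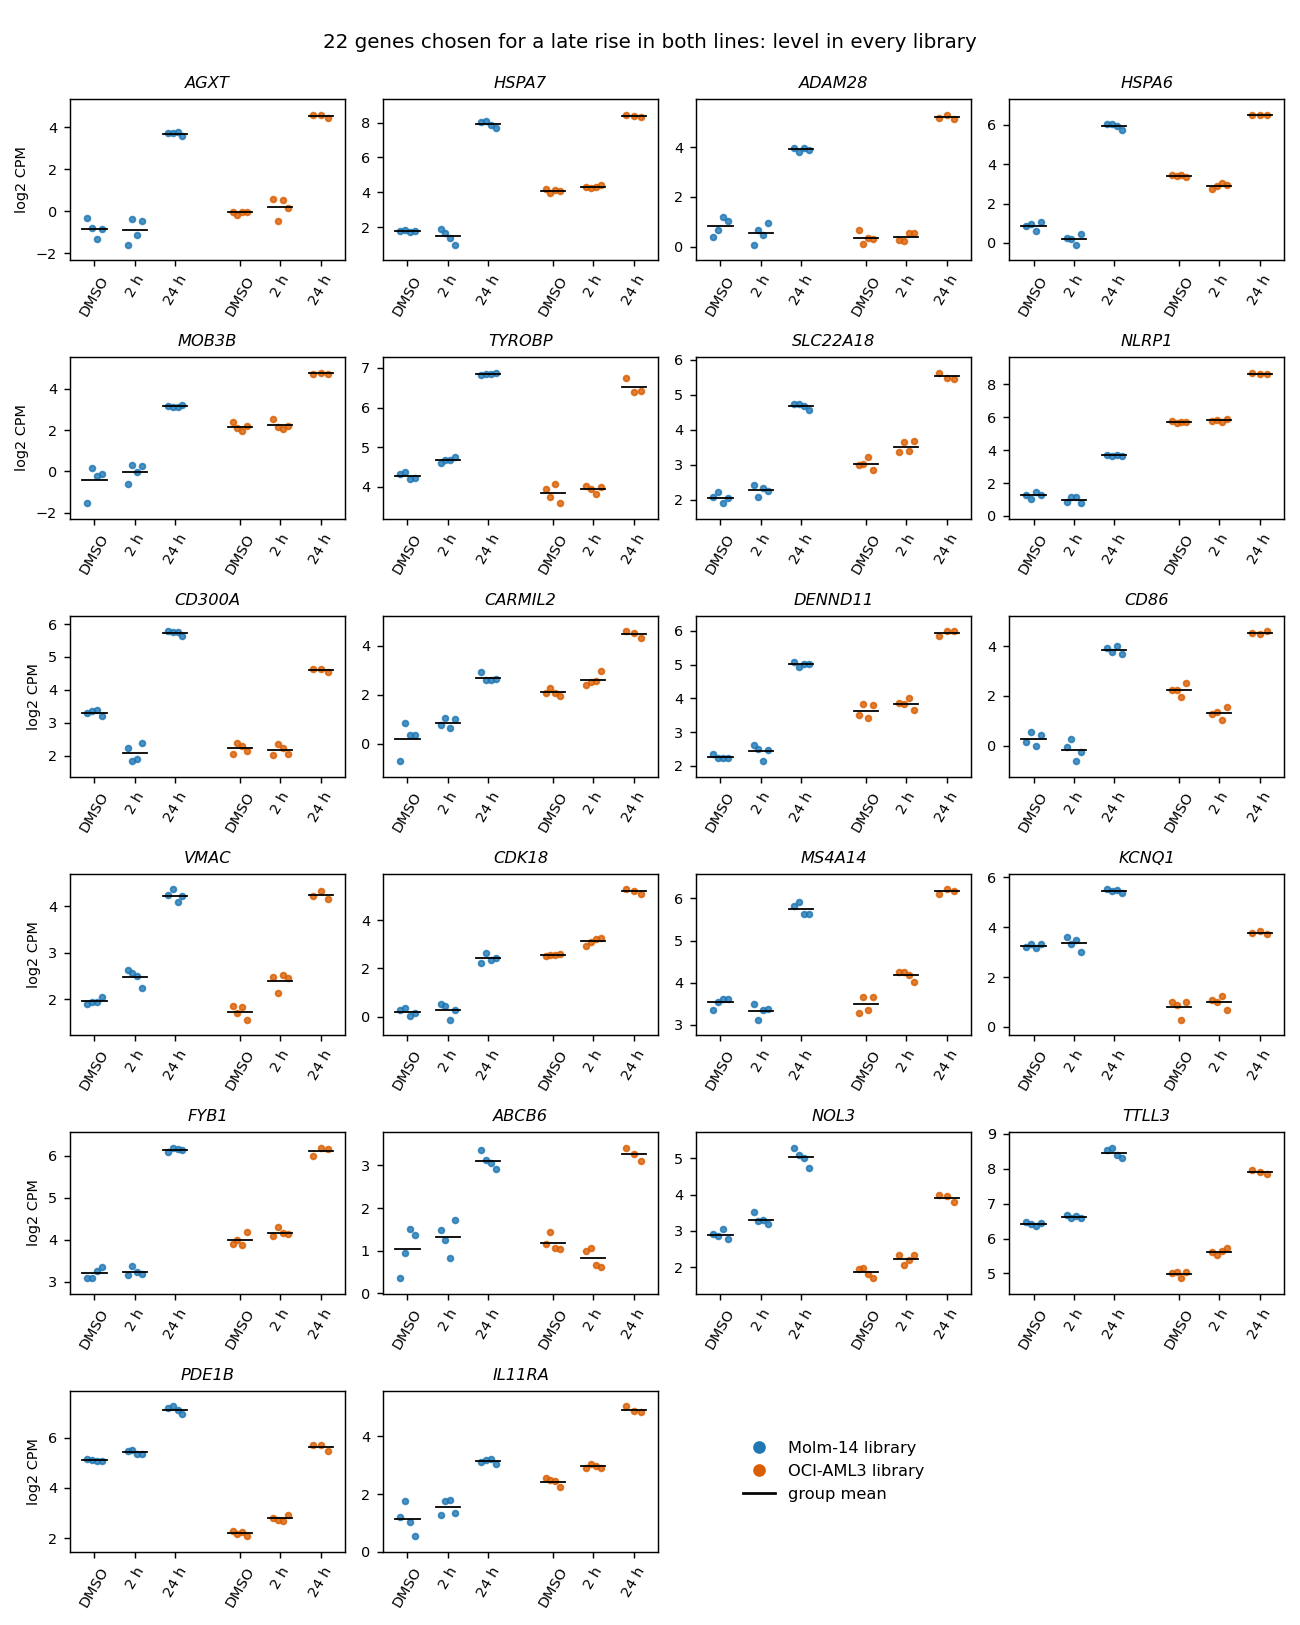
Level of each of the 22 genes in log2 CPM (y axis, its own range in each panel) by line and treatment (x axis); points are single libraries (blue Molm-14, orange OCI-AML3) and bars are group means. Every 24 h library lies above every DMSO library of its line in all panels, while the lines differ in level for genes such as NLRP1 and PDE1B.

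HSPA6 and HSPA7 had the highest 24 h differences of the set in Molm-14. HSPA6 (chr1:161524540-161526894, plus strand) encodes an HSP70 chaperone that most cells make only under stress. HSPA6 in Molm-14 stood at 1.83, 1.96, 1.5 and 2.09 CPM in DMSO, 1.18, 1.15, 0.938 and 1.37 CPM at 2 h and 66.2, 66.7, 61.8 and 52.4 CPM at 24 h. In OCI-AML3 HSPA6 stood at 11.1, 10.4, 10.9 and 10.2 CPM in DMSO, 6.77, 7.47, 8.16 and 7.7 CPM at 2 h and 88.8, 91.5 and 90.7 CPM at 24 h. At 2 h it was lower than in DMSO with no overlap in either line, at 0.627 times the DMSO level in Molm-14 and 0.705 times in OCI-AML3. At 24 h it was 33.6-fold higher in Molm-14 (5.07 ± 0.11) and 8.48-fold in OCI-AML3 (3.08 ± 0.12).

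HSPA7 (chr1:161606172-161608550, plus strand) is annotated as a transcribed pseudogene and lies 79278 bases from HSPA6. HSPA7 in Molm-14 stood at 3.49, 3.65, 3.27 and 3.39 CPM in DMSO, 3.67, 3.17, 2.62 and 2.0 CPM at 2 h and 266, 268, 236 and 204 CPM at 24 h. In OCI-AML3 HSPA7 stood at 18.2, 15.5, 17.7 and 16.7 CPM in DMSO, 19.7, 18.7, 19.6 and 21.5 CPM at 2 h and 352, 334 and 318 CPM at 24 h. The 24 h level was 70.2-fold that of DMSO in Molm-14 and 19.6-fold in OCI-AML3. The transcripts of HSPA6 (2371 bases) and HSPA7 (1927 bases) in GENCODE v29 were 98.6% identical over 1926 aligned bases. Of all 50-base windows of the HSPA7 transcript, 56.3% occurred unchanged in HSPA6, and of all 100-base windows 34.4%. Reads from such windows fit both genes, so their separate values are uncertain and they are not independent of each other.

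The rest of the HSP70 family was mostly lower. Of 11 other measured genes of the family, 8 fell in both lines and none rose in both, where 5.61% of all genes were called lower and 7.82% higher in both. HSPA8, the constitutive cytosolic chaperone, fell (-1.8 ± 0.04 in Molm-14 and -3.19 ± 0.04 in OCI-AML3). HSPA5, the chaperone of the endoplasmic reticulum, fell as well (-1.74 ± 0.04 and -2.47 ± 0.04). HSPH1, a nucleotide exchange factor of HSP70, fell in both lines (-1.62 and -2.84). The stress-inducible HSPA1B fell too (-1.25 ± 0.06 and -2.52 ± 0.07). The near-identical HSPA1A was at 0.48 ± 0.59 in Molm-14, where it was listed near the lowest value, and fell in OCI-AML3 (-2.25), and reads of these copies may be shared too. With the prior removed HSPA1A was not called in OCI-AML3 (-2.25), and without Molm-14 DMSO replicate 4 it was called higher in Molm-14 (1.21). With library totals or median-of-ratios scaling, the count of family genes called lower in both lines was 5, because HSPA4, HSPA13 and HSPA14 then missed the threshold in 1 line, with no change of sign. HSF1, the main heat shock factor, was at 0.11 ± 0.07 and 0.11 ± 0.07 and was not called. HSF2 was not called either (-0.21 ± 0.09 and -0.71 ± 0.09), whereas HSF4 was called higher in both lines (1.86 ± 0.16 and 3.26 ± 0.18).

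HSPA6 and HSPA7 lie among low-affinity Fc receptor genes, and these were higher at 24 h as well. FCGR2A ends 492 bases before HSPA6 and rose by 2.9 ± 0.06 in Molm-14 and 1.61 ± 0.06 in OCI-AML3. FCGR2C lies 4952 bases from HSPA7 and rose by 5.61 and 4.02, and FCGR2B, 38693 bases away, by 5.65 and 3.15. FCGR2B and FCGR2C passed all numeric conditions of the rule and were left out by symbol. They too are close copies whose reads may be shared.

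The heat shock element, the site of heat shock factors, was looked for in the 250 bases before the start of each gene as GAA, TTC and GAA with 2 bases of any kind between each, on both strands. It occurred in 0.557% of 27305 genes with a promoter sequence in the RefSeq table (GRCh38.p14). Of the 11 HSP70 family genes with such a sequence, HSPA6 and HSPA8 held it, and both are shown because their RNA went opposite ways. The sequences run 5′ to 3′ along the strand of the gene, end at the base before its start, and have the matches in capitals.
HSPA6, chr1:161524290-161524539, plus strand: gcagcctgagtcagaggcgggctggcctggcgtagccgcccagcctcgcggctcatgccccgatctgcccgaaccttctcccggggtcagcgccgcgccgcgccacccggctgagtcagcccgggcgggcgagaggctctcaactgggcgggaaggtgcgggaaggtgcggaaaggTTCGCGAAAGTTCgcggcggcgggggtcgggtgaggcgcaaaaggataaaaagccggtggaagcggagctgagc
HSPA8, chr11:123062137-123062386, minus strand: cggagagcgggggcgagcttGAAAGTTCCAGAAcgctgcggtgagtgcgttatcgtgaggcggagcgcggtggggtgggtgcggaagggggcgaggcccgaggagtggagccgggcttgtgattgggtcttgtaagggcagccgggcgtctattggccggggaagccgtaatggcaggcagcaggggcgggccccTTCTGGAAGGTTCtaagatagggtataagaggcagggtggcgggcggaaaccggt
The match in HSPA6 begins 74 bases before the start. The matches in HSPA8 begin 230 and 55 bases before it. A match is a run of letters and was not tested as a binding site.

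Among the enzymes, AGXT (chr2:240868824-240880500, plus strand) encodes the peroxisomal aminotransferase that clears glyoxylate in liver. AGXT in Molm-14 stood at 0.794, 0.566, 0.399 and 0.548 CPM in DMSO, 0.329, 0.762, 0.45 and 0.726 CPM at 2 h and 13.3, 13.3, 13.6 and 11.9 CPM at 24 h. In OCI-AML3 AGXT stood at 0.989, 0.891, 0.988 and 0.983 CPM in DMSO, 1.5, 0.731, 1.47 and 1.11 CPM at 2 h and 24.5, 24.6 and 21.7 CPM at 24 h. From under 1 CPM in every DMSO library of both lines, it was 23.2-fold higher at 24 h in Molm-14 (4.54 ± 0.24) and 24.5-fold in OCI-AML3 (4.61 ± 0.26). Its lowest DMSO library held 5.2 read equivalents, and with the prior removed the ratios of mean CPM were 27.4 in both lines.

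ADAM28 encodes a membrane-anchored metalloproteinase of the disintegrin family. ADAM28 in Molm-14 stood at 1.3, 1.6, 2.3 and 2.03 CPM in DMSO, 1.06, 1.58, 1.4 and 1.94 CPM at 2 h and 15.7, 13.8, 15.8 and 14.9 CPM at 24 h. In OCI-AML3 ADAM28 stood at 1.59, 1.08, 1.27 and 1.23 CPM in DMSO, 1.22, 1.19, 1.49 and 1.46 CPM at 2 h and 35.6, 39.5 and 34.6 CPM at 24 h. The lines overlapped in DMSO and parted at 24 h, with 8.51-fold in Molm-14 and 28.6-fold in OCI-AML3. Of 8 other measured ADAM genes none was called higher in both lines. ADAM11 rose in Molm-14 (3.05), and in OCI-AML3 ADAM8 rose (1.4) and ADAM15 fell (-1.8).

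PDE1B (chr12:54549601-54579239, plus strand) encodes a calcium- and calmodulin-dependent phosphodiesterase that breaks down cyclic nucleotides. PDE1B in Molm-14 stood at 35.4, 35, 33.8 and 34.2 CPM in DMSO, 45.1, 45.9, 41.3 and 41.4 CPM at 2 h and 146, 154, 139 and 123 CPM at 24 h. In OCI-AML3 PDE1B stood at 4.8, 4.5, 4.75 and 4.19 CPM in DMSO, 6.95, 6.59, 6.42 and 7.67 CPM at 2 h and 52.4, 52.1 and 44.6 CPM at 24 h. The 2 h libraries were already above all DMSO libraries in both lines, by 1.25-fold and 1.51-fold. The 24 h fold was 4.05 in Molm-14 and 10.9 in OCI-AML3. NCKAP1L, a WAVE complex subunit of blood cells 1358 bases away, rose in both lines (1.15 ± 0.03 and 1.56 ± 0.04).

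TTLL3 (chr3:9809727-9836365, plus strand) encodes an enzyme that adds glycine to tubulin. TTLL3 in Molm-14 stood at 88.1, 85.3, 82.8 and 88 CPM in DMSO, 102, 96.7, 99.6 and 96.5 CPM at 2 h and 369, 389, 335 and 315 CPM at 24 h. In OCI-AML3 TTLL3 stood at 32.4, 32.9, 29.2 and 33 CPM in DMSO, 48.5, 46, 49.7 and 52.7 CPM at 2 h and 248, 239.7 and 231 CPM at 24 h. Its 2 h libraries also lay above DMSO in both lines. The 24 h fold was 4.08 in Molm-14 and 7.53 in OCI-AML3. The read-through gene ARPC4-TTLL3, which overlaps it and shares its exons, rose too (1.9 ± 0.19 and 1.33 ± 0.20), so the split of reads between them is uncertain. ARPC4 itself was at -0.71 and -0.64 and was not called.

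Among kinases and regulators, CDK18 (chr1:205504669-205532790, plus strand) encodes a PCTAIRE kinase, a relative of the cell cycle kinases. CDK18 in Molm-14 stood at 1.21, 1.28, 1.0 and 1.1 CPM in DMSO, 1.43, 1.38, 0.915 and 1.2 CPM at 2 h and 4.64, 6.25, 5.14 and 5.36 CPM at 24 h. In OCI-AML3 CDK18 stood at 5.63, 5.84, 5.93 and 6.04 CPM in DMSO, 7.56, 8.61, 9.39 and 9.6 CPM at 2 h and 38.5, 36.8 and 34.1 CPM at 24 h. The 24 h libraries of Molm-14 overlapped the DMSO libraries of OCI-AML3. The fold was 4.66 and 6.22. Its relatives CDK14, CDK16 and CDK17 were not called in either line, at -0.66, 0.33 and -0.26 in Molm-14 and -0.67, 0.42 and 0.26 in OCI-AML3.

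MOB3B (chr9:27325209-27529814, minus strand) encodes a member of the MOB family of kinase adaptors. MOB3B in Molm-14 stood at 0.347, 1.11, 0.864 and 0.91 CPM in DMSO, 0.652, 1.26, 0.969 and 1.2 CPM at 2 h and 9.05, 8.62, 8.52 and 9.09 CPM at 24 h. In OCI-AML3 MOB3B stood at 5.16, 4.27, 3.81 and 4.61 CPM in DMSO, 5.8, 4.39, 4.16 and 4.56 CPM at 2 h and 26.3, 27.1 and 26.5 CPM at 24 h. It was 11.9-fold higher at 24 h in Molm-14, from 5.3 read equivalents in its lowest DMSO library, and 6.0-fold in OCI-AML3. Of 6 other MOB genes, only MOB3C was called at 24 h, in Molm-14 (2.27 ± 0.12), and it was at 0.67 ± 0.12 in OCI-AML3. At 2 h MOB3A was called lower in OCI-AML3 (-1.32 ± 0.05) and was at -0.11 ± 0.05 in Molm-14.

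NOL3 (chr16:67170538-67175737, plus strand) encodes ARC, an apoptosis repressor with a caspase recruitment domain. NOL3 in Molm-14 stood at 7.5, 7.25, 8.21 and 6.87 CPM in DMSO, 11.4, 9.58, 9.78 and 9.07 CPM at 2 h and 39.1, 33.9, 31.9 and 26.8 CPM at 24 h. In OCI-AML3 NOL3 stood at 3.88, 3.9, 3.51 and 3.25 CPM in DMSO, 5.01, 4.14, 4.57 and 5.06 CPM at 2 h and 16, 15.6 and 13.8 CPM at 24 h. The 2 h libraries lay above DMSO in both lines, and the 24 h fold was 4.38 and 4.17. HSF4, a heat shock factor 597 bases away, rose in both lines (1.86 ± 0.16 and 3.26 ± 0.18), as did FBXL8 (1.62 and 1.78), and the span of NOL3 overlaps that of MATCAP1 (0.86 and -0.09, not called).

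DENND11 (chr7:141656728-141702166, minus strand) encodes a protein of the DENN domain group, many of which activate RAB GTPases of membrane traffic. DENND11 in Molm-14 stood at 5.07, 4.66, 4.72 and 4.69 CPM in DMSO, 6.17, 5.69, 4.38 and 5.57 CPM at 2 h and 33.6, 30.2, 32.2 and 32.6 CPM at 24 h. In OCI-AML3 DENND11 stood at 11.4, 14.1, 10.6 and 13.9 CPM in DMSO, 14.4, 14.3, 16.1 and 12.6 CPM at 2 h and 57.5, 63.6 and 63.5 CPM at 24 h. Its 2 h and DMSO libraries overlapped in both lines, and the 24 h fold was 6.72 and 4.95. Of 14 other DENND genes, DENND1C (2.09 and 1.29) and DENND6B (1.66 and 1.31) rose in both lines.

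VMAC (chr19:5904872-5910853, plus strand) encodes a coiled-coil protein named for its association with vimentin filaments. VMAC in Molm-14 stood at 3.74, 3.82, 3.81 and 4.13 CPM in DMSO, 6.21, 5.92, 5.62 and 4.76 CPM at 2 h and 18.8, 20.5, 16.9 and 18.6 CPM at 24 h. In OCI-AML3 VMAC stood at 3.62, 3.26, 3.54 and 2.95 CPM in DMSO, 5.56, 4.41, 5.75 and 5.47 CPM at 2 h and 18.6, 19.9 and 17.9 CPM at 24 h. The 24 h values of OCI-AML3 lay inside the range of Molm-14, at 5.63-fold and 4.82-fold their DMSO levels. Its 2 h libraries were above DMSO in both lines, near the 2 h limit of the rule. CAPS, 3401 bases away, rose in both lines (3.07 ± 0.17 and 3.79 ± 0.18).

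Transport across membranes is the known role of ABCB6 and KCNQ1. ABCB6 (chr2:219209772-219218958, minus strand) encodes an ATP-driven transporter linked to porphyrins. ABCB6 in Molm-14 stood at 1.28, 1.92, 2.86 and 2.56 CPM in DMSO, 2.81, 2.4, 1.78 and 3.29 CPM at 2 h and 10.2, 8.74, 8.31 and 7.56 CPM at 24 h. In OCI-AML3 ABCB6 stood at 2.24, 2.74, 2.09 and 2.06 CPM in DMSO, 1.99, 2.07, 1.59 and 1.54 CPM at 2 h and 10.7, 9.67 and 8.61 CPM at 24 h. The lines overlapped in DMSO and at 24 h, and the fold was 4.2 in Molm-14 and 4.24 in OCI-AML3. None of 6 other measured ABCB genes was called higher in both lines. In OCI-AML3 ABCB11 rose (1.61), and ABCB4 (-5.42) and ABCB8 (-1.12, and -0.94 and not called with library totals) fell. None of the 6 was called in Molm-14.

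KCNQ1 (chr11:2445008-2849105, plus strand) encodes a voltage-gated potassium channel known from heart muscle and epithelia. KCNQ1 in Molm-14 stood at 9.13, 10.0, 8.9 and 10.1 CPM in DMSO, 12.1, 10.1, 11.1 and 8.11 CPM at 2 h and 45.7, 43.7, 44.6 and 41.7 CPM at 24 h. In OCI-AML3 KCNQ1 stood at 1.99, 1.82, 1.22 and 2.0 CPM in DMSO, 2.11, 2.01, 2.39 and 1.61 CPM at 2 h and 13.5, 14.5 and 13.3 CPM at 24 h. The 2 h and DMSO libraries overlapped in both lines, and the 24 h fold was 4.61 and 7.99. SLC22A18 (chr11:2899721-2925246, plus strand, GENCODE v29) encodes a transporter-like protein of the organic cation family. SLC22A18 in Molm-14 stood at 4.2, 4.66, 3.76 and 4.13 CPM in DMSO, 5.32, 4.27, 5.07 and 4.79 CPM at 2 h and 26.8, 26.6, 25.5 and 23.5 CPM at 24 h. In OCI-AML3 SLC22A18 stood at 8.06, 8.13, 9.34 and 7.22 CPM in DMSO, 10.2, 12.7, 10.4 and 12.7 CPM at 2 h and 49.4, 44.9 and 43.9 CPM at 24 h. It was 6.12-fold and 5.64-fold higher at 24 h.

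KCNQ1 and SLC22A18 lie 50616 bases apart in an imprinted region of chromosome 11, and CDKN1C, the imprinted gene of the CDK inhibitor p57, lies between them. In Molm-14 the geometric mean of CDKN1C was 0.174 CPM in DMSO, 5.54 CPM after 2 h and 4.51 CPM after 24 h. In OCI-AML3 these means were 0.316, 5.56 and 33 CPM. Its DMSO levels were near the lowest value of the table, and the difference from DMSO was already 4.99 ± 0.28 in Molm-14 and 4.14 ± 0.28 in OCI-AML3 at 2 h, far above the 2 h limit of the rule. At 24 h it rose in both lines (4.69 ± 0.28 and 6.71 ± 0.30). KCNQ1OT1, the antisense RNA inside KCNQ1, was at 0.01 ± 0.12 and 0.65 ± 0.13 and was not called. Without a stated strand setting, reads from the stretch that both genes span (chr11:2608328-2699994) cannot be assigned with certainty. KCNQ1 extends beyond this stretch on both sides. PHLDA2, next to SLC22A18 and imprinted as well, fell in both lines (-1.0 ± 0.16 and -3.17 ± 0.17). Its call in Molm-14 lay at the threshold and ended in 7 of 30 alternatives: on the log2(CPM + 1) scale (-0.97), with library totals (-0.9) or median-of-ratios scaling (-0.91), and without Molm-14 DMSO replicate 2 (-0.98) or 4 (-0.99) or Molm-14 24 h replicate 2 (-0.9965) or 4 (-0.95).

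The differences between the lines were not used by the rule, and these were tested with limma over all genes, with Benjamini-Hochberg adjustment. The rule did set a floor on the 24 h level and on the rise in each line, which bounds the values compared. The 22 genes and all genes are therefore sets of unlike levels, and the shares of all genes are given for scale only. In DMSO, 14 of the 22 genes (63.6%) were called between the lines, against 30.2% of all genes. Of these, 9 were higher in OCI-AML3 (all genes 17.9%) and 5 were lower (12.2%). The median difference, OCI-AML3 minus Molm-14, was 0.78 over the 22 genes and 0.07 over all genes. NLRP1 was 22.1-fold higher in OCI-AML3 (4.47 ± 0.08, adjusted p = 2.65e-29). MOB3B (2.58), HSPA6 (2.54), CDK18 (2.36), HSPA7 (2.3), CD86 (1.96), CARMIL2 (1.89), DENND11 (1.38) and IL11RA (1.3) were higher as well. PDE1B was 7.59-fold lower in OCI-AML3 (-2.92 ± 0.07, adjusted p = 1.09e-25). KCNQ1 (-2.46), TTLL3 (-1.43), CD300A (-1.08) and NOL3 (-1.04) were lower too. The calls of CD300A, NOL3 and IL11RA ended on a scale of log2(CPM + 1), at -0.94, -0.87 and 0.99, and that of NOL3 also without Molm-14 DMSO replicate 3 (-0.99) or without OCI-AML3 DMSO replicate 4 (-0.98). SLC22A18, at 0.97 and not called, passed without Molm-14 DMSO replicate 2 or OCI-AML3 DMSO replicate 4, at 1.02 each. MS4A14 (-0.04, 95% interval -0.23 to 0.14) and ABCB6 (0.14, -0.27 to 0.54) had differences nearest to 0.

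At 24 h, 10 of the 22 genes (45.5%) were called between the lines, against 35.7% of all genes. Higher in OCI-AML3 were 6 (all genes 19.7%), namely NLRP1 (4.96), CDK18 (2.78), IL11RA (1.78), CARMIL2 (1.77), MOB3B (1.59) and ADAM28 (1.28). Lower were 4 (all genes 16.1%), namely KCNQ1 (-1.67), PDE1B (-1.5), CD300A (-1.13) and NOL3 (-1.11). VMAC (0.01, 95% interval -0.22 to 0.24), FYB1 (-0.03, -0.19 to 0.13) and ABCB6 (0.15, -0.29 to 0.59) lay nearest to 0, and the intervals of VMAC and FYB1 exclude a difference beyond 0.24 on the log2 scale. DENND11, at 0.94, passed the threshold with library totals, at 1.02.

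**Figure D3:**
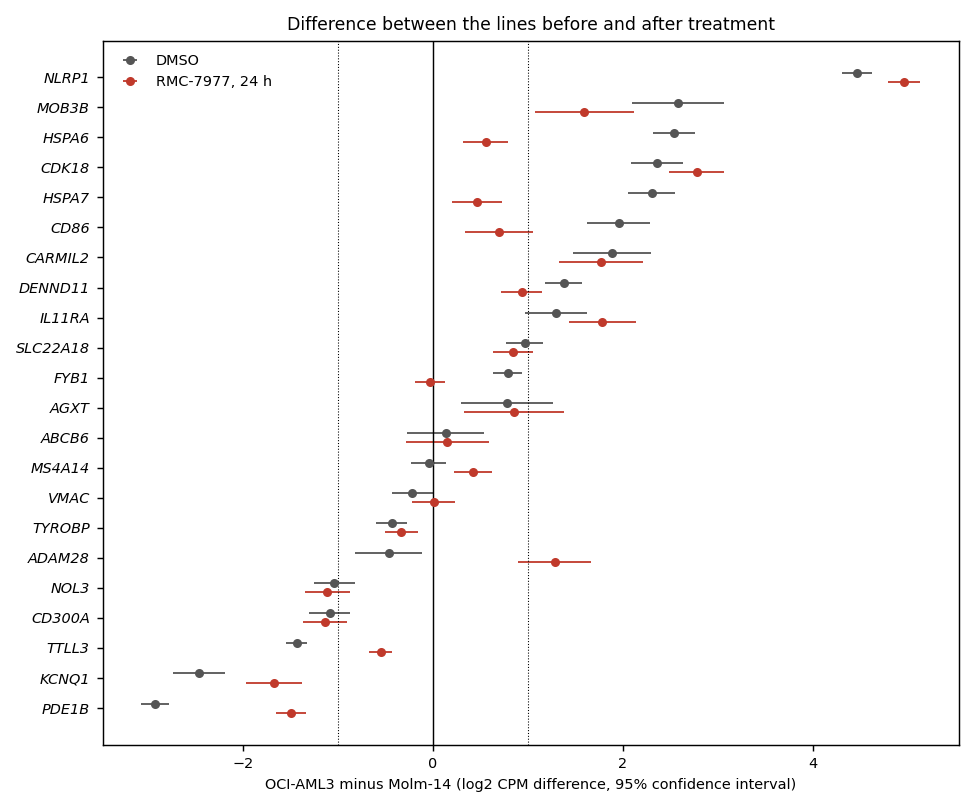
Difference between the lines, OCI-AML3 minus Molm-14, in log2 CPM with its 95% confidence interval (x axis) for each of the 22 genes (y axis), in DMSO (grey) and after 24 h of RMC-7977 (red); dotted lines mark a difference of 1. HSPA6 moves from 2.54 to 0.55, PDE1B from -2.92 to -1.5 and ADAM28 from -0.47 to 1.28, while NLRP1 stays above 4 at both.

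The 24 h responses of the lines, each relative to its own DMSO libraries, differ by a value built from the differences that chose the genes, so it is given as a description with no test. The median of this value, OCI-AML3 minus Molm-14 on the log2 scale, was 0.05 over the 22 genes and -0.05 over all genes. HSPA6 was at -1.98 ± 0.16, a response 3.96-fold smaller in OCI-AML3, and its copy HSPA7 at -1.84 ± 0.17. CD86 was at -1.26 ± 0.24, or -0.71 on the scale of log2(CPM + 1). At 24 h the level of each of these 3 genes differed between the lines by 1.38 to 1.62-fold, under the threshold, after differences of 3.88 to 5.81-fold in DMSO. MOB3B was at -0.99 ± 0.35, with a range of -1.2 to -0.12 over the alternatives and of -1.18 to -0.62 when 1 library was left out. PDE1B was at 1.43 ± 0.10, a response 2.69-fold larger in OCI-AML3, and ADAM28 at 1.75 ± 0.26. The values nearest to 0 were those of ABCB6 (0.02 ± 0.29), CD300A (-0.05 ± 0.15), NOL3 (-0.07 ± 0.16) and AGXT (0.08 ± 0.35).

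Other genes of related pathways and cell types were read from 21 gene lists, of which 5 held 6 of the 22 genes and 16 held none. Of all genes, 7.82% were called higher in both lines and 5.61% lower in both. Beside CD86, 8 of 21 other measured monocyte and macrophage markers (38.1%) rose in both lines and none fell in both. Beside TYROBP and CD300A, 7 of 24 other inhibitory and paired immune receptors (29.2%) rose in both and 1, TREM1, fell in both. On the scale of log2(CPM + 1) these counts of rises were 5 and 4. Single lines also held falls. Of the 21 monocyte and macrophage markers, 8 rose and 2 fell in Molm-14, and 10 rose and 3 fell in OCI-AML3. Of the 24 receptors, 8 rose and 1 fell in Molm-14, and 11 rose and 2 fell in OCI-AML3. Of all genes, 11.4% rose and 6.57% fell in Molm-14, and 18.4% rose and 17.1% fell in OCI-AML3. Beside FYB1, 10 of 42 other genes of immune tyrosine kinase signalling (23.8%) rose in both lines. Beside NLRP1 it was 6 of 33 other genes of toll-like receptor and innate signalling (18.2%), and beside IL11RA 6 of 38 other cytokine and TNF family receptors (15.8%). None of these last 3 lists had a gene that fell in both. Line by line, 8 of the 38 cytokine and TNF family receptors rose and none fell in Molm-14, where 6.57% of all genes fell. In OCI-AML3 7 of them rose and 7 fell, where 17.1% of all genes fell. The median differences of the 5 lists, without the 22 genes, ran from 0.44 to 0.72 in Molm-14 and from 0.28 to 0.99 in OCI-AML3, beside 0 and 0.01 over all genes.

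Of the 16 lists that held none of the 22 genes, those of blood and tissue cells had few measured genes. Genes that rose in both lines numbered 3 of 12 myeloid identity markers, 1 of 9 granulocyte genes, 2 of 10 dendritic cell genes, 1 of 4 erythroid and platelet genes, 0 of 6 lymphoid genes, 2 of 5 epithelial and stromal genes and 0 of 1 gene of eosinophils, basophils and mast cells. For surface and motility genes the counts were 7 of 27 integrins and adhesion genes, 9 of 44 actin and motility genes and 7 of 40 chemokine, lipid and purine receptors. For regulators they were 18 of 35 FOXO and quiescence targets, 4 of 26 p53 targets and 5 of 51 lineage transcription factors. Interferon response genes gave 12 of 40, lysosome genes 10 of 59 and complement and coagulation genes 4 of 19. The shares of FOXO and quiescence targets (51.4%) and of epithelial and stromal genes (40%) exceeded the largest of the 5 lists above (38.1%). That of interferon response genes was 30%, beside 7.82% of all genes. The median difference of the FOXO and quiescence targets was 1.40 in Molm-14 and 1.23 in OCI-AML3. Genes that fell in both lines were 1 dendritic cell gene, 2 p53 targets, 1 complement and coagulation gene, 2 chemokine, lipid and purine receptors and 2 lineage transcription factors. Of the 12 myeloid identity markers, 3 rose and 1 fell in Molm-14, and 5 rose and 0 fell in OCI-AML3.

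Position was the next feature that the rule had not used. The 22 genes lay on 12 chromosomes, and 18 of them had at least 1 measured neighbour within 50 kb, from 12911 symbols with a RefSeq position. Of the 62 neighbours, 13 rose in both lines and 3 fell in both (PHLDA2, SSBP1 beside DENND11 and DHX33 beside NLRP1), where 7.82% and 5.61% of all genes were called. The 13 lay beside 11 of the 22 genes. They were FCGR2A, FCGR2B, FCGR2C, CDKN1C, HSF4, FBXL8, CAPS, NCKAP1L and ARPC4-TTLL3, given above, together with GPRC5C (3.0 and 2.47) and CD300LB (1.28 and 3.81) beside CD300A, ANKZF1 (1.07 and 1.14) beside ABCB6 and C16orf86 (1.06 and 1.25) beside CARMIL2. The Molm-14 call of CD300LB ended on the log2(CPM + 1) scale (0.65) and without Molm-14 DMSO replicate 1 (0.9), and that of C16orf86 on the same scale (0.76) and without Molm-14 DMSO replicate 3 (0.97) or Molm-14 24 h replicate 1 (0.9977) or 3 (0.93). Over the 30 alternatives the neighbours that rose in both lines numbered 11 to 15 and those that fell in both 2 or 3. FCGR2B and FCGR2C are among the 13 and met all numeric conditions of the rule, and ARPC4-TTLL3 shares exons with TTLL3. Their rises are therefore not separate from those of the set, and no excess over all genes is read from the counts. Reads that run past a gene's end were not examined. CD300C, 49837 bases from CD300A, was at 0.72 and -0.04 and was not called.

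Promoters were searched for 5 further motifs in the 250 bases before the start, on both strands, for the 16 of the 22 genes with a sequence in the RefSeq table. ADAM28, CARMIL2, KCNQ1, NLRP1, SLC22A18 and HSPA7 were not matched. The PU.1 letters GAGGAAGT were held by 2.65% of all genes and by TYROBP. In TYROBP they lie on the opposite strand of the sequence shown above, from 12 to 5 bases before the start. The FOXO letters GTAAACA (3.66% of genes) were held by MS4A14, and the CLEAR letters GTCACGTG of lysosomal genes (2.66%) by ABCB6. The AP-1 letters TGANTCA (8.06%) were held by HSPA6, MS4A14 and PDE1B, and in HSPA6 they do not overlap the heat shock element. The interferon letters, GAAA and GAAA with 2 bases of any kind between them (3.71%), were held by none of the 16. No motif was shared by more than 3 of the 16 genes.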

How the data were processed

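The authors deposited log2 CPM values for 13033 gene symbols in 23 libraries, with no counts. The tools named in the submitters' processing notes were Trimmomatic 0.36, STAR 2.7.8a, RSEM 1.3.3, edgeR 3.24.3, limma 3.38.3 and MultiQC 1.28, with hg38 (GRCh38); their settings are not stated. Labels list 24 libraries, all of batch 1. Columns were matched to samples by library name, and OCI-AML3 24 h replicate 3 was not analysed here. All libraries shared a lowest log2 CPM of -3.26, or 0.105 CPM, which is the prior. Library sizes were recovered from the spacing of low values: of values up to 20 reads, 75.1% to 82.4% were within 0.05 of whole numbers and the others fractional, so no count test was run.

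The members and lists were chosen with earlier results of these data known. A single limma 3.58.1 fit (R 4.3.3) held 6 group means with trend and robust moderation, and adjustment for multiple testing (Benjamini-Hochberg) ran over 13033 genes. The script was tested on simulated data with 200 changed genes, for the difference between lines in the 24 h response only. The tests between lines in DMSO and at 24 h were not covered by it. Calls needed an adjusted p below 0.05 and an absolute log2 difference of at least 1. Every member is named; per-library values were to be given for the 15 members with the largest smaller 24 h difference, the 6 with the smallest adjusted p in each direction between lines and in response, and members of a list, and are given for all. The difference between lines in the 24 h response, planned as a test, is built from the values that chose the genes and is given with no test. Families and neighbours were picked after their values were seen. Alternatives were log2(CPM + 1), library totals, median-of-ratios scaling, a minimum mean of 1 CPM, a replicate block, plain moderation, each library left out and, added after seeing the data, the prior removed.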

Additional observations from a re-analysis of the deposited data

Results flagged for a closer look

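Single libraries stood apart from the other 3 of their group in 5 of 110 groups examined by Dixon's ratio, where chance gives about 1 in 20. AGXT was at 0.891 CPM in OCI-AML3 DMSO replicate 2, against 0.983 to 0.989 CPM in the others. CARMIL2 was at 7.61 CPM in Molm-14 24 h replicate 1, against 6.09 to 6.31 CPM. CD300A was at 49.7 CPM in Molm-14 24 h replicate 4, against 54.3 to 55.1 CPM. DENND11 was at 5.07 CPM in Molm-14 DMSO replicate 1, against 4.66 to 4.72 CPM. TTLL3 was at 29.2 CPM in OCI-AML3 DMSO replicate 3, against 32.4 to 33.0 CPM. Each of these distances is small beside the 24 h difference of the same gene.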

How the results depend on the processing

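Over 30 alternatives, the number of genes found by the rule ran from 19 to 26, and the number called between lines from 11 to 15 in DMSO and from 10 to 11 at 24 h; no called value changed sign. The rule found 19 to 25 genes when 1 library was left out, 26 on the scale of log2(CPM + 1) with 16 of the 22 among them, 25 with library totals (20 of the 22), 26 with median-of-ratios scaling (21) and 22 with the prior removed (21). All 30 alternatives retained 13 of the 22. Library totals moved the median 24 h difference of all genes to 0.10 in Molm-14 and 0.18 in OCI-AML3. With the replicate block the rule gave 22 genes, and none of the 22 changed its call between lines in DMSO or at 24 h. Deviations of same-numbered libraries from their group means correlated at r = -0.18 to 0.13 over 55 pairs. Differently numbered libraries were not compared, so these values do not settle whether the replicate numbers pair the libraries. Depth limits AGXT and MOB3B most, whose lowest DMSO libraries held 5.2 and 5.3 read equivalents.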
